A study of Mus musculus with 14 samples.

Results

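The stem and progenitor transcription factors described here are 10 genes of the 22155 in the count table, found by their symbols: Gata1, Gata2, Tal1, Lyl1, Lmo2, Erg, Fli1, Runx1, Gfi1b and Myb. Gata2, Tal1, Lyl1, Lmo2, Erg, Fli1 and Runx1 form the heptad, a group of factors that act together in blood stem cells, to which Gata1, Gfi1b and Myb were added. The symbols were taken from a named list and not from measured values, although earlier results of these data were known when it was chosen. All 10 had a row in the table, and 9 had enough counts to be tested. Of the 9, Gfi1b, Gata1, Runx1 and Erg were higher in the cells transduced with sgSgf29. Lyl1, Myb, Fli1 and, except when libraries were scaled by size alone, Lmo2 were lower. Over all genes tested, 69.8% differed between the groups in the same comparison (edgeR adjusted p under 0.05). Gfi1b and Gata1 could be tested only because they were high in the sgSgf29 libraries.

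GATA factors bind a short GATA motif through zinc fingers. TAL1 and LYL1 are basic helix-loop-helix proteins that pair with E proteins such as those of Tcf3 and Tcf12 to bind E-boxes, and LMO2 is a LIM-domain bridge without DNA binding of its own that joins them, through LDB1, to GATA proteins. ERG and FLI1 are related ETS factors, RUNX1 binds DNA with its partner CBFB, MYB drives the proliferation of blood progenitors, and GFI1B is a zinc-finger repressor that recruits the demethylase encoded by Kdm1a. Stem cells use GATA2, TAL1, LYL1, LMO2, ERG, FLI1 and RUNX1 together, whereas GATA1 and GFI1B are best known from erythroid, megakaryocytic, mast cell and eosinophil differentiation.

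The study disrupted Sgf29, a gene for a Tudor-domain reader in the SAGA and ATAC acetyltransferase complexes, in mouse leukemia cells that carry the MLL-AF9 fusion oncogene and express Cas9. Messenger RNA was sequenced in 6 libraries of these MLL-AF9-Cas9+ cells, 3 transduced by lentivirus with a control guide (sgCtrl) and 3 with a guide against Sgf29 (sgSgf29). Both groups carried the fusion, Cas9 and the guide vector, and both were selected for 3 days with puromycin at 2 μg/ml. The chromatin samples among the 14 of the series were not analysed here. The labels number the libraries of each group 1 to 3 without saying whether a number stands for a guide, a culture or a repeat of one culture, so p-values measure the spread between these libraries, which may be technical.

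Each library held 16003990 to 21786618 counts in genes. Sgf29 itself, the targeted gene, measured 36.2, 40.4 and 40.4 CPM in sgCtrl cells, against 12.6, 13.4 and 17.4 CPM in sgSgf29 cells. CPM here means counts scaled to a fixed library total after TMM, a scaling that offsets differences in RNA composition between libraries. The 6 genes listed for the identity of the leukemia cells (Ptprc, Mpo, Itgam, Hoxa9, Meis1 and Kit) were all detected well enough to be tested. The libraries are of bulk cells, in which fewer cells of a type and less RNA per cell cannot be told apart.

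Promoter sequences were available here for 8 of the 10 genes, at 13 annotated starts, from RefSeq on GRCm38.p6. The stretches before the start of the 2 genes with the largest rises, Gfi1b and Gata1, and of the 2 most abundant genes that fell, Lyl1 and Myb, are shown so that the letters behind the motif matches can be seen. All are read 5′ to 3′ on the strand of the gene, and capitals mark a match to a searched motif on either strand. They come from chr2:28621983-28622232 on the minus strand, chrX:7967911-7968160 on the minus strand, chr8:84701207-84701422 on the plus strand and chr10:21160985-21161234 on the minus strand.
Gfi1b: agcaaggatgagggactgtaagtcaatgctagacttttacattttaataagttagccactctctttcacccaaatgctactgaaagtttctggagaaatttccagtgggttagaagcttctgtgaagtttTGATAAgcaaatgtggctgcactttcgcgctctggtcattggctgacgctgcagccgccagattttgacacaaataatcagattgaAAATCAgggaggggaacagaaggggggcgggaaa
Gata1: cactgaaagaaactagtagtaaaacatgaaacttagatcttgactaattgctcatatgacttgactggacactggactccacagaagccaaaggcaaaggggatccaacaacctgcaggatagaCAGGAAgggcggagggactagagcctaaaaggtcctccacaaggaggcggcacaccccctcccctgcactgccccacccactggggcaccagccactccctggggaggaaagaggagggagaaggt
Lyl1: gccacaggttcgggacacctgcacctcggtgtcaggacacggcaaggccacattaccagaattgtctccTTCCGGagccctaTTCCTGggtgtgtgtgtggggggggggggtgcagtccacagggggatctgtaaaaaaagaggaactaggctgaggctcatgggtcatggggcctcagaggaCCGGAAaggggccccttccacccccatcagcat
Myb: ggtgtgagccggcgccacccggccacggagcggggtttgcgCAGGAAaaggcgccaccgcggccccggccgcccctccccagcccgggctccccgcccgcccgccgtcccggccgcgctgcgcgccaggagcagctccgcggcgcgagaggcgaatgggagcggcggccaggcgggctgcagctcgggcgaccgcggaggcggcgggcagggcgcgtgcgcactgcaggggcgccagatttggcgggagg

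The searched motifs were AGATAA and TGATAA for GATA factors, CAGGAA and CCGGAA for ETS factors, CAGCTG and the related form CAGATG as E-boxes, and, for RUNX, MYB and GFI1 proteins, TGTGGT, then CAACNG, and last AAATCA, in a window from 250 bases before to 50 bases after the start. The Gfi1b window held a GATA match, TGATAA, whose first base lay at position -120, and the GFI1 match AAATCA at -34. A GATA motif of either form occurred in 18.6% and the GFI1 motif in 14% of the 32851 promoters of the same length. The Gata1 window held the ETS match CAGGAA at -126 and no GATA match. The Lyl1 stretch ends where the exon of a longer predicted transcript begins. The start used for Gata1 lies inside a longer annotated gene, because a predicted transcript begins further upstream.

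The Lyl1 window held 3 ETS matches, CCGGAA at -181, CAGGAA at -168, both on the opposite strand, and CCGGAA at -67. The Myb window held an ETS match, CAGGAA at -209, and the E-box CAGATG at 30 past the start. An ETS motif occurred in 41.4% and an E-box in 30.6% of all promoters. The upstream start of Runx1 held a MYB match at -167, an ETS match at -125 and RUNX matches at 29 and 37 past the start, and its downstream start held CCGGAA at -106. RUNX matches occurred in 16.8% and MYB matches in 35% of all promoters. The first Tal1 start held AGATAA at -205, a MYB match at -14 and CAGATG at 11. One of the 3 Erg starts held AGATAA at -103 and CAGGAA at -39, and a start of Gata2 held CAGCTG at 18. These are matches of letters and not measured binding.

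The promoters of the factors also differed in base composition. The Myb window had 75.0% G and C with 40 CG dinucleotides, and the starts of Gata2 had 69.3% and 73.7%. The Gfi1b window was poorer, with 44.3% G and C and 7 CG dinucleotides, and the Gata1 window had 57.3% with 4. The median over all promoters was 52.7% with 7 CG dinucleotides. The starts of Runx1 stood apart from each other, the upstream one at 45.0% with 2 CG dinucleotides and the downstream one at 69.0% with 35. The counts are per gene and do not say which start was used.

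In the comparison of sgSgf29 with sgCtrl cells, 4 of the 9 tested factors fell and 4 rose, with a call made at adjusted p under 0.05 (edgeR's quasi-likelihood test with Benjamini-Hochberg adjustment over all 11169 tested genes). Of all tested genes, 69.8% were called, 34.4% lower and 35.4% higher, so the share of called factors is read against a transcriptome in which most tested genes passed. The median log2 fold change of the 9 factors was -0.18 beside 0.01 for all tested genes. In 8 of the 9 tested factors the CPM of the groups did not overlap, beside 72.1% of all tested genes. Gata1 and Gfi1b passed the filter on low counts through the sgSgf29 libraries, since neither reached the asked 0.556 CPM before TMM scaling in any sgCtrl library, so they could be tested because they were high in 1 group.

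**Figure D1:**
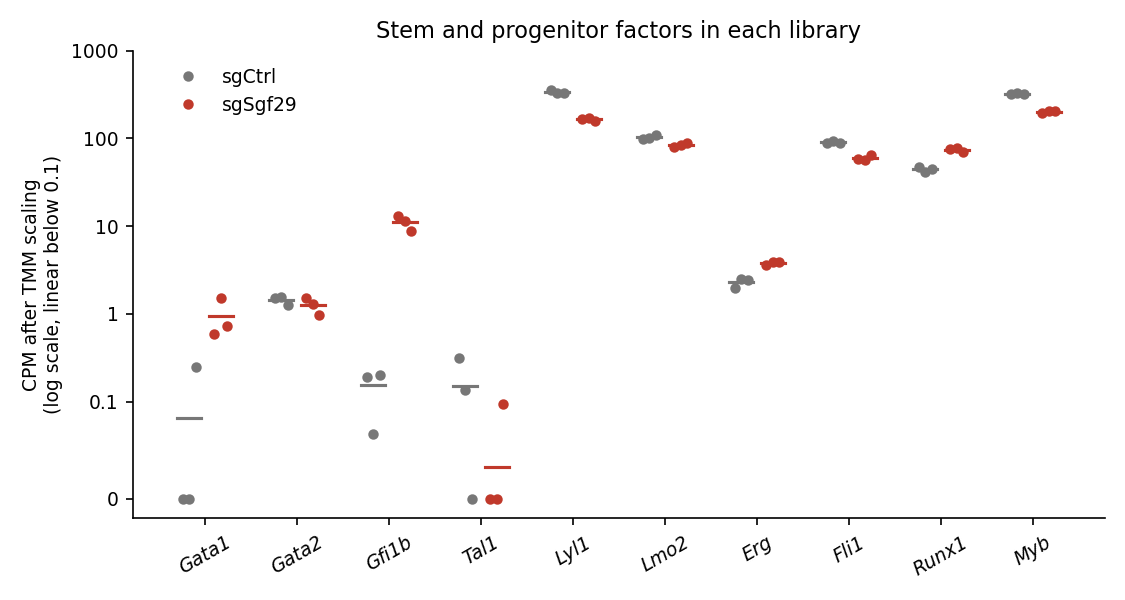
CPM after TMM scaling of the 10 factors in each library, on a log axis that is linear below 0.1 CPM, with sgCtrl in grey and sgSgf29 in red (points are the 3 libraries, lines their mean). Gfi1b sits far above the sgCtrl libraries in all 3 sgSgf29 libraries, Gata1 lies above them at low levels, Lyl1, Myb, Fli1 and Lmo2 sit below them, and the groups overlap for Gata2 and Tal1. Scaling by library size alone takes the call from Lmo2.

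**Figure D2:**
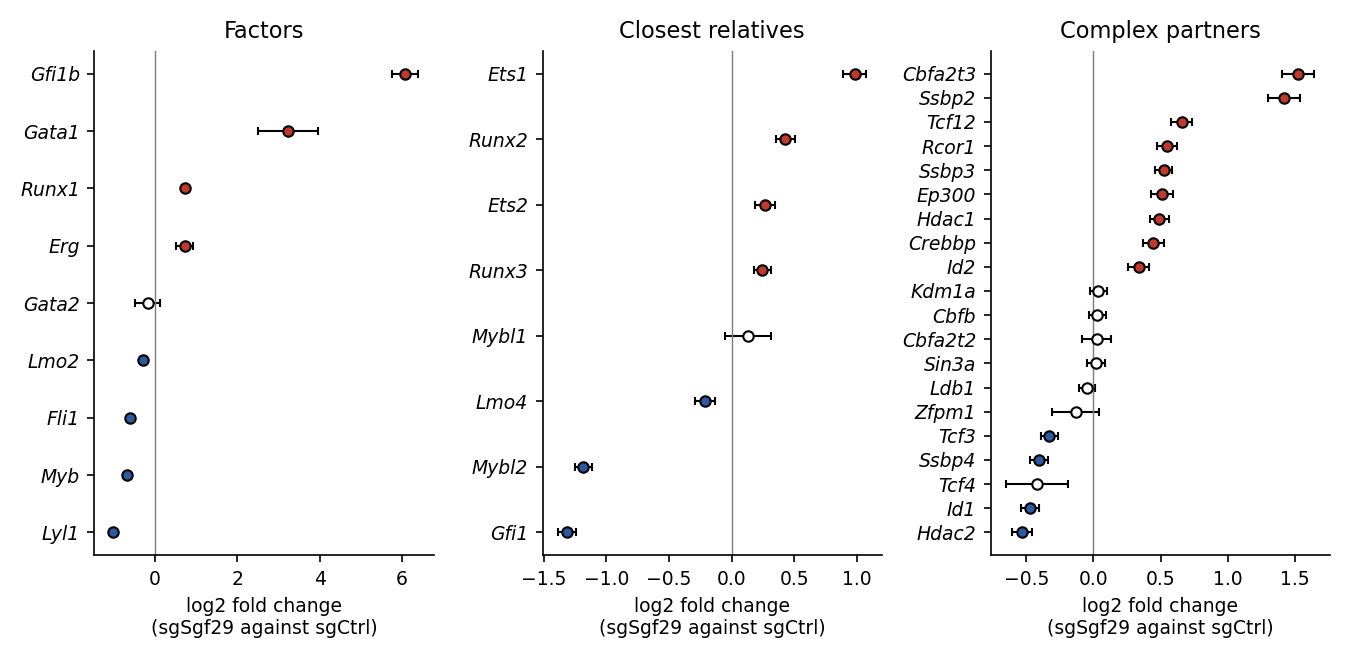
Log2 fold change of sgSgf29 against sgCtrl with its standard error for the tested factors (left), their closest relatives (middle) and their complex partners (right), each panel with its own scale. Red points were called higher, blue points lower and open points were not called, with Gfi1b at 6.07 and Lyl1 at -1.03 as the ends of the left panel. With scaling by library size alone Gata2, Lmo4, Ldb1 and Zfpm1 change sign.

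Gfi1b, on chromosome 2 (28609450 to 28621982, minus strand, GRCm38), showed the largest change of the 10. Its reads numbered 3, 1 and 4 counts in sgCtrl cells but 222, 255 and 180 counts in sgSgf29 cells, or 0.191, 0.0670 and 0.200 against 13.01, 11.5 and 8.80 CPM. The gene was near the detection limit in every control library and well measured in every sgSgf29 library. Its log2 fold change was 6.07 ± 0.31 (SE, 3 libraries per group, edgeR adjusted p = 9.6e-13), and the ratio of the pooled counts was 69.7, with an exact 95% interval of 35.2 to 162.1 that covers counting error alone. The control side of this fold rests on 8 counts in all.

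Gfi1, which encodes the close relative of GFI1B found mainly in stem cells and in the granulocyte lineage, moved the other way. It measured 283.8, 302.2 and 268 CPM in sgCtrl against 106.5, 113.3 and 123.1 CPM in sgSgf29 libraries. Its log2 fold change was -1.32 ± 0.07 (edgeR adjusted p = 1.5e-12). Gfi1 still had the higher CPM of the pair in all 6 libraries, with 3107 bases of exon against 1822 for Gfi1b.

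Gata1, on chromosome X (7959260 to 7976663, minus strand), had 0, 0 and 5 counts in sgCtrl cells, and in sgSgf29 cells 10, 34 and 15 counts. In CPM these were 0, 0 and 0.250 against 0.586, 1.53 and 0.733. The groups did not overlap, but the highest sgSgf29 value was still under 2 CPM. The log2 fold change was 3.23 ± 0.72 (edgeR adjusted p = 0.00051), and the pooled ratio was 10.02, with a counting interval of 4.06 to 32.0. All 5 control counts lay in sgCtrl 3. Without that library no control count remained. The sgSgf29 mean of 0.9504 CPM was then 9.72 times an assumed floor of 3 counts over the remaining control libraries. That ratio depends on the floor chosen and is not a lower bound on the change.

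Gata2, the GATA factor of stem cells and early progenitors on chromosome 6 (88193891 to 88207032, plus strand), was low in both groups. It measured 1.53, 1.54 and 1.25 CPM in sgCtrl and 1.52, 1.31 and 0.977 CPM in sgSgf29 libraries, from 72 and 75 counts in all. The values overlapped. The log2 difference was -0.18 with a 95% interval of -0.82 to 0.46 (edgeR adjusted p = 0.62), and it turned to 0.05 with scaling by library size alone. A change of either sign within that interval was thus not excluded at this depth.

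Tal1, on chromosome 4 (115056426 to 115071755, plus strand), was almost absent from the libraries, with 5, 2 and 0 counts in sgCtrl and 0, 0 and 2 counts in sgSgf29. It did not reach the filter in any library and was not tested. The pooled ratio of 0.243 had a counting interval of 0.0246 to 1.27. Without the filter its log2 difference was -1.86 ± 1.34 (edgeR adjusted p = 0.24).

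Lyl1, the relative of Tal1 on chromosome 8 (84701423 to 84704716, plus strand), was among the most abundant of the factors and fell. It measured 354.5, 330.0 and 327.2 CPM in sgCtrl cells and dropped in sgSgf29 cells to 164.5, 171.1 and 159.5 CPM. No library of either group came near the other group. The log2 fold change was -1.03 ± 0.06 (edgeR adjusted p = 1.5e-11). The annotated exons of Lyl1 share 4 bases with Nfix on the opposite strand.

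Lmo2, on chromosome 2 (103957903 to 103981878, plus strand), measured 98.4, 101 and 108.9 CPM in sgCtrl and 79.2, 84.8 and 89.2 CPM in sgSgf29 libraries. The groups did not overlap, although the gap between them was smaller than the range within either. The log2 fold change was -0.28 ± 0.07 (edgeR adjusted p = 0.00084), and scaled by library size alone it was -0.05 (adjusted p = 0.52). The call of Lmo2 thus depended on the scaling, which that of Lyl1 did not.

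Of the ETS genes, Fli1, on chromosome 9 (32422204 to 32543432, minus strand), measured 89.8, 94.5 and 89.7 CPM in sgCtrl and 58.3, 57.5 and 64.8 CPM in sgSgf29 libraries. It fell by 0.60 ± 0.07 on the log2 scale (edgeR adjusted p = 1.1e-07). Erg, on chromosome 16 (95359169 to 95586600, minus strand), measured 1.97, 2.48 and 2.45 CPM in sgCtrl and 3.57, 3.88 and 3.91 CPM in sgSgf29 libraries. It rose by 0.72 ± 0.22 (edgeR adjusted p = 0.0057), from 117 to 227 counts. Both genes kept their groups apart, in opposite directions and at very different levels.

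Among their relatives, Ets1, an ETS gene best known from lymphoid cells, rose from 18.8 ± 0.117 to 37.0 ± 3.92 CPM (SD, n = 3, log2 fold change 0.98, edgeR adjusted p = 7.9e-09). Ets2 rose by 0.26 (adjusted p = 0.0052).

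Runx1, on chromosome 16 (92601466 to 92826074, minus strand), rose from 47.3, 41.8 and 44.9 CPM in sgCtrl cells to 74.9, 78.7 and 69.2 CPM in sgSgf29 cells. The lowest sgSgf29 value was well above the highest sgCtrl value. Its log2 fold change was 0.73 ± 0.07 (edgeR adjusted p = 1.7e-08). An antisense gene, Gm26626, shares 106 exonic bases with Runx1, and whether the counts were separated by strand is not given in the sources used here.

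The other RUNX genes rose as well, with smaller log2 fold changes. Runx2, the bone-forming factor of the family, went from 33.2 ± 2.54 to 44.7 ± 1.32 CPM (log2 fold change 0.43, edgeR adjusted p = 5.5e-05). Runx3 went from 54.1 ± 3.17 to 64.1 ± 2.19 CPM (0.24, adjusted p = 0.0036). Cbfb, the gene of their common partner, measured 63.8 ± 2.66 and 65.2 ± 0.171 CPM, a log2 difference of 0.03 (adjusted p = 0.70) that became 0.26 (adjusted p = 0.0017) when libraries were scaled by size alone.

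Myb, on chromosome 10 (21124930 to 21160984, minus strand), measured 323.8, 329.5 and 321.4 CPM in sgCtrl cells, whereas the sgSgf29 libraries held 194.4, 205 and 206 CPM. The spread within each group was a small part of the distance between them. The log2 fold change was -0.69 ± 0.06 (edgeR adjusted p = 3.7e-09). The antisense gene Gm26577 shares 559 exonic bases with Myb. Mybl2, the relative of Myb used by most dividing cells, fell from 126 ± 3.58 to 55.4 ± 3.93 CPM (-1.19, adjusted p = 4.2e-12).

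A list of 12 MYB targets was drawn up from general knowledge, but with earlier results of these data known, so its counts are a description only. Of these genes 11 were tested, and 10 were lower and 1 was higher, with a median log2 fold change of -0.74, beside 34.4% lower and 35.4% higher of all tested genes. Prtn3 and Mpo, genes of neutrophil granule enzymes, fell by 1.88 ± 0.09 (edgeR adjusted p = 5.5e-13) and 1.83 ± 0.16 (adjusted p = 1.9e-09). Gfi1, described above, is also on this list. Myc, the growth regulator, fell from 222.1 ± 12.7 to 112.8 ± 12.9 CPM. The gene that rose was Ets2, named after its values were seen. With scaling by library size alone 9 of the 11 stayed lower, beside 2385 lower and 5575 higher of all 11169 tested genes. The list also holds granule and stem cell genes that other lists share, and the part of Myb in these changes was not tested.

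**Figure D3:**
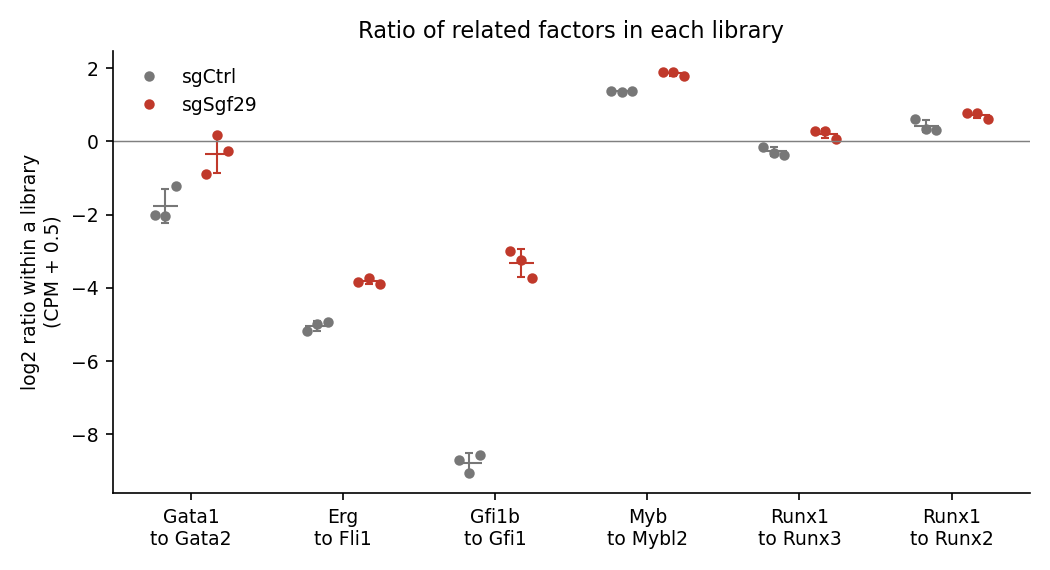
Log2 ratio of a factor to its relative within each library (CPM + 0.5), with sgCtrl in grey and sgSgf29 in red, points for libraries and bars for the mean ± SD of 3. The ratio is higher in every sgSgf29 library than in every sgCtrl library for the 6 pairs drawn, with the widest gap for Gfi1b to Gfi1 (-8.78 against -3.32). The values for Gata1 to Gata2 and Gfi1b to Gfi1 depend on the 0.5 CPM added to each level.

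Because each of these relatives shares binding sites with its partner in the pair, the balance between them was compared within libraries. The scaling between libraries cancels in such a ratio only where both levels lie well above the 0.5 CPM added. For 7 pairs the mean log2 ratio (CPM + 0.5) was higher in the sgSgf29 libraries, and no pair had overlapping groups. The direction follows from which gene was placed first. Pairs were chosen with earlier results of these data known, and their ratios largely restate the changes of the single genes. Runx1 to Runx2 was barely apart, with 0.61 as the highest sgCtrl and 0.62 as the lowest sgSgf29 value. With 3 against 3 libraries the exact two-sided permutation test cannot go below p = 0.10, so it could call no pair. Each of the 7 pairs reached that value (0.10 also after Benjamini-Hochberg adjustment over 7). The ratio of Gfi1b to Gfi1 moved by 5.45, from -8.78 ± 0.25 to -3.32 ± 0.38 (SD, n = 3), or by 6.82 with 0.1 CPM added in place of 0.5.

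The ratio of Erg to Fli1 moved by 1.22, from -5.04 ± 0.13 to -3.82 ± 0.08, so that Fli1 remained far above Erg. The ratio of Gata1 to Gata2 moved by 1.43, from -1.76 ± 0.46 to -0.33 ± 0.54, or by 2.87 with 0.1 CPM added in place of 0.5. Myb against Mybl2 moved by 0.50, Runx1 against Runx3 by 0.48 and Runx1 against Runx2 by 0.30. The Tal1 to Lyl1 ratio moved by 0.76, but Tal1 was near 0 throughout, so this value largely repeats the fall of Lyl1, and it was 0.26 with overlapping groups (exact p = 0.90) when 0.1 CPM was added.

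Levels of different genes were compared as CPM per kilobase of exon, using the merged exons of the curated RefSeq transcripts. In the sgCtrl libraries the order of mean levels was Lyl1 (187.3), Myb (86.0), Lmo2 (54.1), Fli1 (28.8), Runx1 (6.05), Erg (0.663), Gata2 (0.429), Gfi1b (0.0837), Gata1 (0.0438) and Tal1 (0.0352). Neighbours did not overlap between libraries except Gfi1b with Gata1 and Gata1 with Tal1. In the sgSgf29 libraries it was Lyl1 (91.6), Myb (53.4), Lmo2 (44.4), Fli1 (19.0), Runx1 (10.1), Gfi1b (6.09), Erg (1.09), Gata1 (0.4997), Gata2 (0.379) and Tal1 (0.00762), and Gata1 and Gata2 were the neighbours that overlapped. The first 5 places were therefore the same in both groups, while Gfi1b passed Erg and Gata2. With the longer exons of the GENCODE annotation, a choice added after seeing the data, Lmo2 stood above Myb in both groups and Tal1 above Gata1 in sgCtrl.

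**Figure D4:**
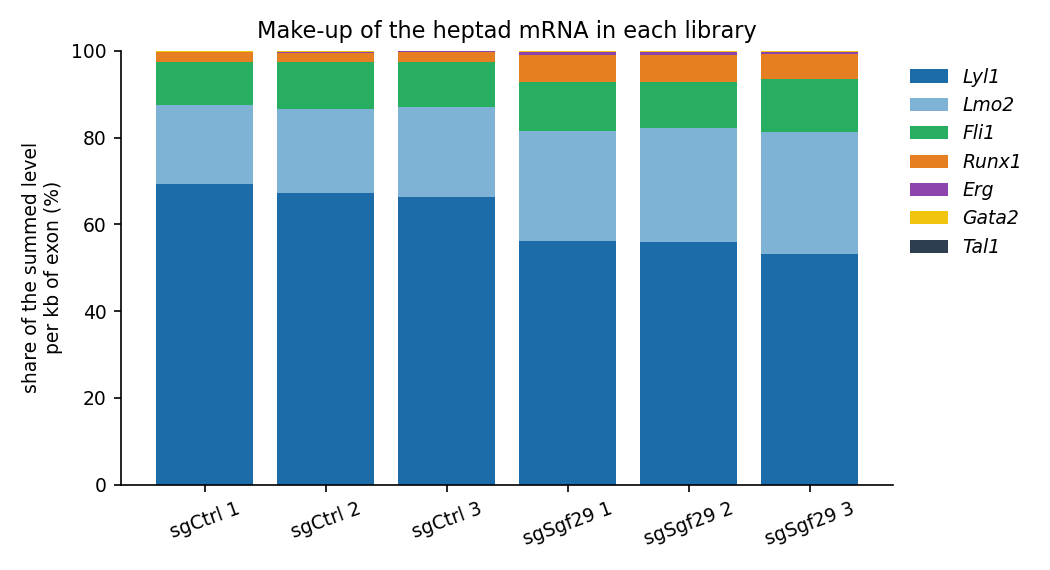
Share of each heptad factor in the summed CPM per kilobase of exon of the 7 factors, in percent, as 1 bar per library. Lyl1 makes up the largest part of every bar and takes 53.1% to 56.0% in sgSgf29 against 66.2% to 69.2% in sgCtrl libraries, while the part of Runx1 is larger in sgSgf29 libraries.

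The heptad mRNA as a whole, summed per kilobase over its 7 genes, was 284.4, 273 and 274.4 in sgCtrl cells, and with sgSgf29 it was 163, 169.9 and 166.7. Its make-up changed with it. Lyl1 held 67.5% ± 1.54 of the sum in sgCtrl and 55.0% ± 1.66 in sgSgf29 libraries (SD, n = 3). Lmo2 held 19.5% ± 1.34 and 26.7% ± 1.34, Fli1 10.4% ± 0.485 and 11.4% ± 0.801, and Runx1 2.18% ± 0.0945 and 6.04% ± 0.361. Erg held 0.240% and 0.656%, and Gata2 and Tal1 stayed under these. Lyl1, Lmo2 and Fli1 thus made up most of the heptad mRNA in both groups, and shares of one sum are tied to each other.

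The partners of these factors were described as a list of 22 genes, of which 20 were tested, and 4 were lower, 9 were higher and 7 were not called (median log2 fold change 0.03), beside 34.4% lower and 35.4% higher of all tested genes. Cbfa2t3, which encodes the ETO2 corepressor of the TAL1 and GATA complexes, rose from 7.42 ± 0.394 to 21.3 ± 2.27 CPM (log2 fold change 1.52, edgeR adjusted p = 4.9e-10). Ssbp2 and Ssbp3, whose proteins stabilise LDB1, rose by 1.42 (adjusted p = 1.5e-09) and 0.52 (adjusted p = 2.4e-07). Ssbp4, of the same family, fell from 189.1 to 142.8 CPM (-0.41, adjusted p = 2.3e-05). Tcf12, an E protein gene, rose by 0.66 (adjusted p = 3.7e-07).

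Another E protein gene, Tcf3, measured 144.2 ± 9.58 and 114.9 ± 2.13 CPM, a log2 fold change of -0.33 that was -0.10 and not called with scaling by library size alone. Ldb1, whose protein bridges the whole complex, measured 145.7 ± 4.87 and 140.9 ± 1.82 CPM, a log2 difference of -0.05 (adjusted p = 0.50) that was 0.18 (adjusted p = 0.010) under library size scaling. Kdm1a, the demethylase gene named above, measured 57.2 ± 1.91 and 58.7 ± 1.62 CPM (0.04, adjusted p = 0.63, and 0.27, adjusted p = 0.0016, under library size scaling). Tcf3, Ldb1, Cbfb and Kdm1a, like Ssbp4 above and Lmo4, Klf1, Itga2b, Gp9, Gp5 and Egfl7 below, were named after their values were seen. Under library size scaling 3 partners were lower and 14 higher, beside 2385 lower and 5575 higher of all 11169 tested genes.

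Of 11 closest relatives, 8 were tested, 3 lower and 4 higher, beside 34.4% lower and 35.4% higher of all tested genes. The 3 lower ones were Gfi1, Mybl2 and Lmo4. Lmo4, a LIM-only gene like Lmo2, measured 57.1 ± 2.72 and 49.4 ± 4.83 CPM with overlapping groups (-0.21, adjusted p = 0.018), and 0.02 under library size scaling.

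Because Gata1 and Gfi1b are known from erythroid, megakaryocytic and mast or eosinophil cells, marker genes of those lineages were listed beside them. Of 16 erythroid genes with a row, 10 had no count in any library, the globin genes among them, and 2 were tested. Tfrc, the transferrin receptor used by all dividing cells, measured 284.3 ± 13.6 and 220.9 ± 7.12 CPM (-0.36, adjusted p = 3.4e-05, and -0.13, adjusted p = 0.062, under library size scaling), and Klf1, the erythroid factor, measured 1.58 ± 0.348 and 1.26 ± 0.0881 CPM (adjusted p = 0.36). The summed erythroid level, nearly all Tfrc, was 272.2 to 299.8 CPM in sgCtrl and 216.7 to 230.4 CPM in sgSgf29 libraries.

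Of 18 megakaryocyte genes 6 were at 0 in all libraries, among them Pf4, Gp1bb and Gp6, which define the lineage. Of 8 tested, 5 were higher and 1, Itga2b, was lower, beside 35.4% higher and 34.4% lower of all tested genes. With RLE scaling or with TMM computed without ribosomal protein genes 4 were higher. Plek rose from 19.7 ± 0.963 to 103.1 ± 5.70 CPM (log2 fold change 2.38, edgeR adjusted p = 5.5e-16), Itgb3 from 3.71 ± 0.627 CPM to 26.6, 29.3 and 34.05 CPM, Selp from 6.29 ± 0.348 to 23.2 ± 1.61 CPM and Vwf from 0.164 ± 0.0556 to 1.54 ± 0.392 CPM. Plek and Itgb3 are also known from monocytes and macrophages. Vwf, like Gata1 and Gfi1b, passed the filter on low counts through the sgSgf29 libraries alone, so it could be tested only because it was high there. Itga2b fell from 2.34 ± 0.339 to 1.05 ± 0.251 CPM (log2 fold change -1.13, edgeR adjusted p = 0.0017). The platelet glycoprotein genes Gp9 (-0.32, edgeR adjusted p = 0.1) and Gp5 (-0.63, adjusted p = 0.18) were not called. Nfe2, the most abundant gene of the list, measured 124.6 and 137.1 CPM. The summed list was 162.9 to 170.2 CPM in sgCtrl and 295.2 to 309.2 CPM in sgSgf29 libraries, and the largest part of that difference was Plek.

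Of 17 mast cell, basophil and eosinophil genes 9 were at 0 in all libraries, Cpa3 among them, and 3 were tested. Mcpt8, a basophil protease gene, fell from 9.61 ± 0.333 to 2.80 ± 0.511 CPM (edgeR adjusted p = 1.1e-08). Hdc, the histamine-forming enzyme gene and the most abundant of the list in sgSgf29 cells, rose from 1.47 ± 0.397 to 5.25 ± 0.861 CPM. Epx, eosinophil peroxidase, was at 0, 0.0670 and 0 CPM in sgCtrl and 0.527, 1.26 and 1.08 CPM in sgSgf29 libraries (edgeR adjusted p = 1.5e-05). Like Gata1 and Gfi1b, Epx passed the filter on low counts through the sgSgf29 libraries alone, so it could be tested only because it was high there. The summed list was 11.05 to 12.01 CPM in sgCtrl and lower, at 8.70 to 10.7 CPM, in each sgSgf29 library. Members of the list moved in both directions at low levels.

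**Figure D5:**
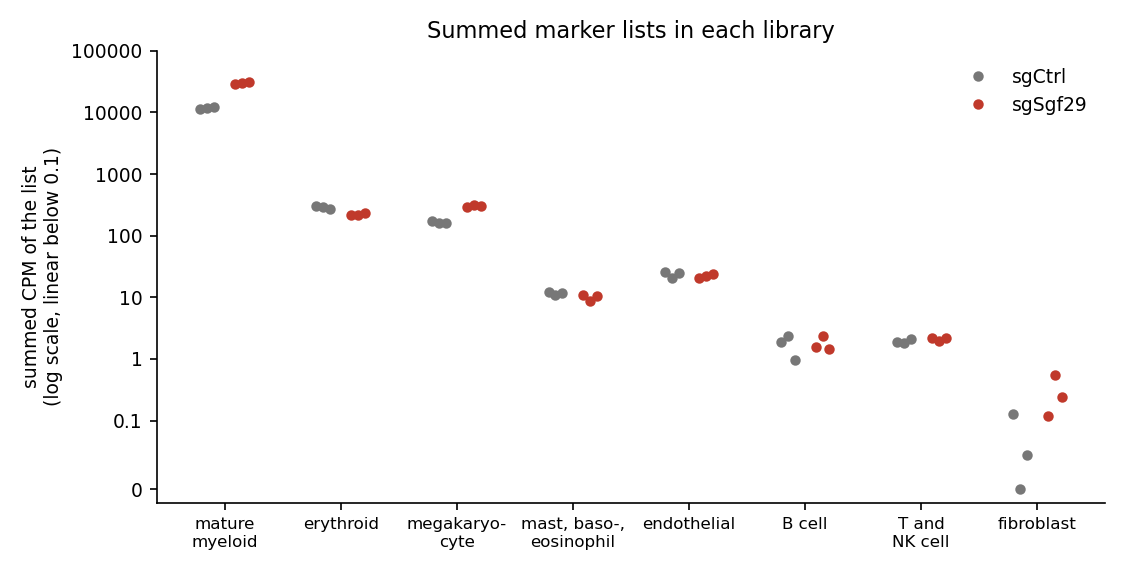
Summed CPM of marker lists in each library, on a log axis that is linear below 0.1 CPM, with sgCtrl in grey and sgSgf29 in red. The mature myeloid sum is 11410 to 12050 CPM in sgCtrl and 29080 to 30570 CPM in sgSgf29 libraries, and the sums of the B cell, T and NK cell and fibroblast lists stay under 3 CPM.

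Genes of mature myeloid cells moved beside the factors. Of 30 listed genes 26 were tested and 21 were higher and 3 lower, beside 35.4% higher and 34.4% lower of all tested genes. The median log2 fold change was 1.84, and S100a9, the most abundant, went from 3447 ± 224 to 13070 ± 427 CPM. The lower ones were Ltf (-0.86), Ly6c2 (-0.53) and Camp (-0.16). Fcgr1 and Itgax passed the filter on low counts through the sgSgf29 libraries alone, so they could be tested only because they were high there. These 5 genes were named after their values were seen. The part of the mature myeloid genes in the changes of Gfi1b, Gata1, Runx1, Lyl1 and Myb was not tested. Of 20 stem and progenitor cell markers 7 were at 0 in all libraries, Cd34 among them. Of the 7 tested, 2 were lower and 3 higher, beside 34.4% lower and 35.4% higher of all tested genes. With RLE scaling or with TMM computed without ribosomal protein genes 3 were lower. Hoxa9, the homeobox gene that MLL fusions keep active, fell from 164.8 ± 7.86 to 63.8 ± 4.68 CPM (edgeR adjusted p = 7.2e-13), and Kit, the receptor of stem cell factor, from 32.4 ± 2.98 to 19.4 ± 1.97 CPM. Meis1, the cofactor of HOXA9, rose from 15.5 ± 0.556 to 21.3 ± 1.32 CPM and Ly6a, the gene of the Sca-1 antigen, from 0.811 ± 0.240 to 2.07 ± 0.296 CPM.

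Endothelial cells share ERG, FLI1, TAL1 and GATA2 with blood progenitors, so their markers were summed too. The sum was 20.8 to 25.4 CPM in sgCtrl and 20.3 to 24.3 CPM in sgSgf29 libraries, and Cdh5, Emcn, Cldn5 and Sox17 had no counts. Members of the list moved in opposite directions within that sum. Egfl7, the most abundant in sgCtrl cells, fell from 11.9 ± 2.82 to 6.52 ± 1.20 CPM (log2 fold change -0.87, edgeR adjusted p = 0.00012), and Pecam1, the most abundant in sgSgf29 cells and also a leukocyte gene, measured 3.76 ± 0.392 and 7.03 ± 0.944 CPM (0.91, adjusted p = 1e-04). In the B cell, T and NK cell and fibroblast lists the most abundant genes, Vpreb1, Lck and Col1a1, reached 1.01, 1.21 and 0.163 CPM in the sgSgf29 libraries.

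The genes whose levels followed Gfi1b and Gata1 most closely over the 6 libraries were found by Pearson's r of log2(CPM + 0.5), as a description. For Gfi1b these were Cnn2 (0.9997), Tcta (0.9995) and Sh3bp5 (0.9995), and 2159 genes had an r over 0.95. For Gata1 they were Fgr (0.9982), Hivep1 (0.9962) and Hs2st1 (0.9939), and 148 genes had an r over 0.95. With 2 groups that do not overlap, any gene that differed strongly between them has a high r, and the points share libraries and scaling.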

How the data were processed

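Messenger RNA of 6 libraries was analysed, 3 per group. Raw gene counts, as the authors deposited them in 1 table, were the starting point. For their making, the paper names STAR on mm10, featureCounts, TMM and edgeR, while processing notes from the submitters give STAR 2.6.0a with GRCm38. The table carries 5 bookkeeping entries of the kind htseq-count writes, which held 25.9% to 31.4% of all counts and were not used in sizing libraries or in tests. For annotation, strand setting and multiply mapped reads the choice is not given in the sources used here.

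Genes passing edgeR's filterByExpr (a count of 10 at the median library size, 15 in total) were scaled by TMM and compared by quasi-likelihood in edgeR 4.0.16 (R 4.3.3), adjusting p by Benjamini-Hochberg over 11169 genes. CPM used the TMM-scaled library sizes, in which 1 count was worth 0.0451 to 0.0670 CPM. SE is the log2 fold change divided by the root of the F value. Other runs scaled by RLE, upper quartile, library size or TMM computed without ribosomal protein genes, tested by DESeq2 1.42.0 or limma-voom (limma 3.58.1), or used other filters, a stricter threshold, a replicate block and each library left out. The procedure was tested on simulated data in which only a small part of the genes differed, unlike in these data, so that test says nothing on the scaling. No pair of libraries within a group agreed within sampling noise (their chi-square over degrees of freedom was 4.48 to 15.4).

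The factors, lists, motifs and tests were chosen with earlier results of these data known. Named genes were all 10 factors, Sgf29, the relatives paired with a factor, up to 4 called genes of each related list with the smallest adjusted p, the most abundant gene of each list of other cell types, and for the 2 largest changes the 3 genes most alike. RefSeq on GRCm38.p6 gave coordinates, and GENCODE gave overlaps between genes.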

Additional observations from a re-analysis of the deposited data

How the results depend on the processing

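Counts of called factors stayed at 4 lower and 4 higher under every alternative run, except that library size scaling left 3 lower and the filter of 1 CPM in 3 libraries gave 3 higher, because Gata1 was then not tested. Library size alone also gave 2385 genes lower and 5575 higher over all genes, so that 29.96% of calls were lower against 49.26% with TMM (3842 lower, 3957 higher). Under it the median over all genes went from 0.01 to 0.24 on the log2 scale, Gata2 to 0.05 and Lmo2 to -0.05 (adjusted p = 0.52).

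Leaving out each library gave 3430 to 3833 genes lower and 3662 to 3943 higher, with 4 factors in each direction each time. Gata1 ranged from 2.69 without sgSgf29 2 (adjusted p = 0.011) to 7.15 without sgCtrl 3, a fitted value against controls with no count. Over the alternatives, the log2 fold change of Gfi1b ranged from 5.77 to 6.33, Lyl1 from -1.05 to -0.80, Myb from -0.70 to -0.45, Fli1 from -0.65 to -0.37, Runx1 from 0.69 to 0.97 and Erg from 0.62 to 0.95. With GENCODE exon lengths 2 neighbours in the order of sgSgf29 levels overlapped in place of 1.

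The numbers of the labels were not taken to pair the libraries, since the correlations of their deviations were 0.03, 0.08 and 0.13. The replicate block gave 4 factors lower and 4 higher and 3937 and 4059 genes over the table, and it changed no call of a factor. The depth limits Gata1, Gata2, Tal1 and the control side of Gfi1b, at 5, 72, 7 and 8 control counts.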
